A study of Mus musculus with 6 samples.

Results

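Collagen chain genes are described here: the 44 rows of the deposited expression table, of 24525 in all, whose symbol has the form of a collagen chain (Col, a type number, the letter a and a chain number). They were measured in 6 RNA-seq libraries of total RNA from mouse heart, taken at 3 to 6 months of age. The 3 libraries WT 4, WT 5 and WT 6 are labelled wild type. The 3 libraries DKO 7, DKO 8 and DKO 9 are labelled MBNL1/2 DKO: these mice carried Mbnl1-/- and Mbnl2cond/cond together with Myh6-Cre+/-, in which the Mbnl1 allele is null in all cell types, while the Myh6 promoter drives Cre, which acts on Mbnl2, in cardiomyocytes. The labels name neither a Cre nor a conditional allele for the wild type. The comparison of DKO with WT asks how heart transcripts differ when both MBNL splicing regulators are targeted.

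Collagens are built from 3 alpha chains wound into a triple helix, and classes differ in what the trimers form. Fibrillar collagens, types I, III and V in the heart, make the load-bearing fibres between muscle bundles, and type IV makes the sheet of the basement membrane around myocytes and capillaries. Beaded type VI filaments link both, and fibril-associated types sit on fibre surfaces. In the heart, fibroblasts make most fibrillar collagen, and its accumulation is known as fibrosis.

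Levels are TPM, a transcript abundance corrected for transcript length and scaled to the same total in every library, so that chains can be compared with each other. They are given as mean ± SD of n = 3 libraries per group. A log2 difference is the DKO mean of log2(TPM + 1) less the WT mean. It was tested with limma over the 14541 genes that reached 1 TPM in 3 or more libraries, and a chain is called when its Benjamini-Hochberg (BH) adjusted p is below 0.05. TPM keeps no read counts, and the depth is unknown. DKO 7 is WT in its genotype tag but DKO in its title and source name. Xist was present at 152 TPM in DKO 7 and 174 TPM in DKO 8, while DKO 9 and all WT libraries had Y-linked transcripts instead. Mbnl1 was 102, 108 and 107 TPM in DKO 7, 8 and 9 and 145 to 161 TPM in WT, and Mbnl2 was 227 to 245 TPM in DKO and 149 to 189 TPM in WT, so that these gene-level sums do not check the deletion. Whether each library is a different animal is not given in the labels, and p-values speak only of the variation among these libraries, which may be technical. The 6 cardiomyocyte markers together held 47087 to 47547 TPM in WT and 43261 to 44589 TPM in DKO, where 1 of them, the calcium release channel Ryr2, was called lower (756 ± 28.6 to 530 ± 55.9 TPM). Pln (5691 and 4502 TPM), Actn2 (1430.4 and 1674 TPM) and Myh6 (12330.2 and 10491.5 TPM) were not called. Over all genes tested, 4.22% were called lower.

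Of the 44 chains, 28 reached the expression filter. Of these, 9 were higher in DKO (Col1a1, Col1a2, Col3a1, Col5a2, Col4a3, Col14a1, Col8a1, Col8a2 and Col13a1), 1 was lower (Col6a6) and 18 were not called. None of these 10 calls held with a term for the sex-linked split or with DKO 7 counted as WT. Those fits called 0 of the 28 chains each and 0.633% and 0.00688% of all genes. With the term, the difference rests on DKO 9 against WT, as in a fit of DKO 9 alone. With groups by title, 6.51% of all genes tested were called higher and 4.22% lower, and the median log2 difference was 0.03 against 0.47 for the 28 chains. Col8a2 passed the filter only through the DKO libraries and so had to differ; without it, 8 of 27 chains were higher. In 15 of the 28 chains every DKO library lay above every WT library, which held for 19.1% of all genes tested, and in 1 chain every DKO library lay below, which held for 13.8%. Each of the 9 chains called higher was above all WT libraries in DKO 7, in DKO 8 and in DKO 9 alike. They were chosen by these same values, so this is no separate support. WT 5 was the lowest WT library for 24 of the 28 chains, and DKO 8 was the highest DKO library for 24. DKO 7 was the lowest DKO library for 21 and the highest for 0.

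**Figure D1:**
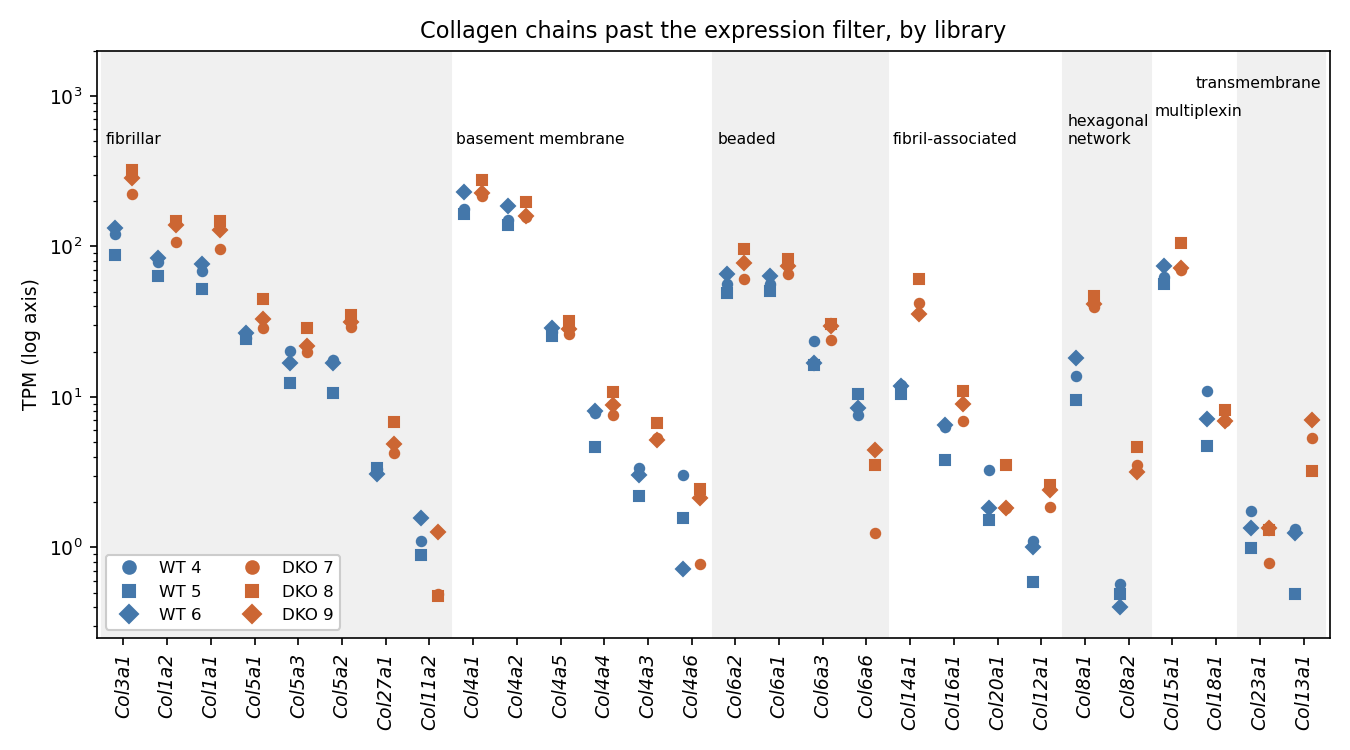
TPM (log axis) of the 28 collagen chains past the expression filter, 1 point per library, ordered by class and then by WT mean, with WT in blue and DKO in orange. Col3a1, Col14a1, Col8a1 and Col8a2 show the groups clearly apart, and Col4a1, Col4a2 and Col4a5 show them mixed.

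In the fibrillar class, 4 of 8 tested chains rose and none fell, against 6.51% and 4.22% of all genes tested. In 6 of the 8 every DKO library lay above every WT library, against 19.1% of all genes tested. Col3a1 (chromosome 1, 45311538 to 45349706 on GRCm38), the chain of type III collagen, was the most abundant fibrillar chain, with 121, 87.2 and 133 TPM in WT 4, 5 and 6 and 223, 322 and 286 TPM in DKO 7, 8 and 9. Its lowest DKO library lay well above its highest WT library. The log2 difference of Col3a1 was 1.28 (SE 0.19; adjusted p = 0.0110 by limma), a ratio of means of 2.44.

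Type I collagen is the stiff main fibre of the heart and is a trimer of Col1a1 and Col1a2 chains. Col1a1 (chromosome 11, 94936224 to 94953042) had 68.6, 51.8 and 76.3 TPM in WT and 96.6, 148 and 129 TPM in DKO. Col1a2 (chromosome 6, 4505618 to 4541543) had 78.8, 63.5 and 83.2 TPM in WT and 107, 147 and 138 TPM in DKO. Both rose, with every DKO library above every WT library, by a log2 difference of 0.91 (SE 0.19; adjusted p = 0.0319 by limma) for Col1a1 and 0.79 (SE 0.15; 0.0230) for Col1a2. The call of Col1a1 was lost in 5 of the 6 fits that left out 1 library, all but the one without DKO 7 (adjusted p up to 0.0928 by limma). It was also lost without a filter (0.0503) and with eBayes without trend (0.0569). That of Col1a2 was lost without WT 4, WT 5, DKO 8 or DKO 9 (up to 0.0752).

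Type V collagen copolymerises with type I and limits fibre diameter. Col5a2 (chromosome 1, 45374331 to 45503282) lies 24624 bases from Col3a1 on the opposite strand. It rose from 17.7, 10.6 and 16.8 TPM in WT to 29.0, 34.8 and 31.6 TPM in DKO, a log2 difference of 1.06 (SE 0.19; adjusted p = 0.0208 by limma). The call of Col5a2 was lost without DKO 7, DKO 8 or DKO 9 (adjusted p up to 0.0732 by limma). Its partner Col5a1 had 24.7, 24.2 and 26.6 TPM in WT and 28.6, 44.8 and 32.9 TPM in DKO. The groups of Col5a1 did not overlap, but it was not called (log2 difference 0.45, 95% interval 0.07 to 0.84; adjusted p = 0.127 by limma). Col5a3 (16.5 ± 3.91 and 23.5 ± 4.56 TPM in WT and DKO) and Col27a1 (3.25 ± 0.153 and 5.30 ± 1.32 TPM) were not called either. Col11a2, a chain of the cartilage type XI, was near 1 TPM in both groups (1.18 ± 0.350 and 0.743 ± 0.453). The cartilage chains Col2a1 and Col11a1, with Col24a1, had at most 0.222 TPM in any library and were not tested.

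Upstream sequence is shown for 2 of the fibrillar chains that rose together, with the 250 bases before the RefSeq start site on GRCm38.p6, 5′ to 3′ on the gene's strand. Capitals mark the CCAAT box, the TATA box (TATAAA) and the GC box (GGGCGG), each on either strand. Col1a2 (chr6:4505368-4505617, plus strand) held 1 CCAAT and 2 GGGCGG, and Col3a1 (chr1:45311288-45311537, plus strand) held 1 TATAAA and no match to the other pair.
Col1a2: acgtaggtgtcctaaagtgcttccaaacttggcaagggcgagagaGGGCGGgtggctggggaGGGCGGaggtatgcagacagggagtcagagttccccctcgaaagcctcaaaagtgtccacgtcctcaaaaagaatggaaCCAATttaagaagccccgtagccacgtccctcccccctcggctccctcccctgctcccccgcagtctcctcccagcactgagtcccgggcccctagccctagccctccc
Col3a1: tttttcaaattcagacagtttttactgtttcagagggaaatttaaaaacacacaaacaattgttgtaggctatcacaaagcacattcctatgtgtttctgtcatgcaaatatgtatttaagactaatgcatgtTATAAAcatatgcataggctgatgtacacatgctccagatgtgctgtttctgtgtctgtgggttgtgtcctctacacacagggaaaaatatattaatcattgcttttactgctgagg

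Windows of that length were at hand for 35 of the 44 chains, and not for Col1a1, Col2a1, Col4a3, Col5a2, Col9a3, Col12a1, Col14a1, Col22a1 and Col26a1. GGGCGG, the core of the GC box that SP1 binds, was in 21 of the 35 collagen windows (60.0%) and in 32.9% of all 27025 gene windows. CCAAT was in 12 (34.3%, against 34.5% of all genes) and TATAAA in 5 (14.3%, against 13.0%). A match is a description of the letters and not of binding.

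The basement membrane class had the highest summed TPM in WT. Of its 6 chains, all tested, 1 rose and none fell. Over all genes tested 6.51% were higher and 4.22% lower, and 1 call among 6 chains is close to those shares. Col4a1 (chromosome 8, 11198423 to 11312889) and Col4a2 (chromosome 8, 11312805 to 11449287), the chains of the common type IV trimer, were the next most abundant collagens after Col3a1 in DKO and the most abundant in WT. Col4a1 had 178, 164 and 229 TPM in WT and 217, 275 and 226 TPM in DKO, with groups that overlapped (log2 difference 0.34, 95% interval -0.01 to 0.68; adjusted p = 0.198 by limma). Col4a2 had 149, 139 and 185 TPM in WT and 157, 198 and 160 TPM in DKO, also overlapping (log2 difference 0.12, 95% interval -0.20 to 0.44; adjusted p = 0.616 by limma).

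The other 4 type IV chains, which build the specialised networks of kidney, lung and smooth muscle, were lower in level. Col4a3 (chromosome 1, 82586921 to 82722059) rose from 3.39, 2.18 and 3.04 TPM in WT to 5.35, 6.74 and 5.20 TPM in DKO, a log2 difference of 0.81 (SE 0.19; adjusted p = 0.0405 by limma). The call of Col4a3 was lost in each of the 6 fits that left 1 library out (adjusted p 0.0647 to 0.123 by limma). It was also lost without a filter (0.0679) and with a filter of 5 TPM (0.0605). Col4a4 (6.87 ± 1.93 and 9.06 ± 1.63 TPM), Col4a5 (27.1 ± 1.72 and 28.8 ± 2.73 TPM) and Col4a6 (1.77 ± 1.16 and 1.78 ± 0.888 TPM) were not called. For Col4a5 the 95% interval of the log2 difference ran from -0.16 to 0.32, and for Col4a6, which varied from 0.721 to 3.01 TPM within WT, from -0.89 to 0.96.

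Of the beaded type VI chains, 4 of 6 were tested, none rose and 1 fell. As a count, 1 call among 4 chains is close to the shares over all genes tested (6.51% higher and 4.22% lower). Col6a1 had 56.6, 50.7 and 63.9 TPM in WT and 65.4, 83.0 and 74.3 TPM in DKO, and its groups did not overlap by a narrow margin. Col6a2, its neighbour on chromosome 10, had 56.0, 49.2 and 66.1 TPM in WT and 60.6, 96.9 and 78.2 TPM in DKO, with overlap. Neither was called (log2 difference 0.37 for Col6a1 and 0.44 for Col6a2; adjusted p 0.0980 and 0.185 by limma). Col6a3, the largest chain of the common type VI trimer, had 23.5, 16.4 and 16.9 TPM in WT and 23.8, 30.6 and 29.8 TPM in DKO and was not called (log2 difference 0.55; adjusted p = 0.0846 by limma), although without WT 4 it was (adjusted p = 0.0460 by limma).

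Col6a6 (chromosome 9, 105689417 to 105828246), which can take the place of Col6a3, went the other way. It fell from 7.57, 10.4 and 8.39 TPM in WT to 1.25, 3.53 and 4.46 TPM in DKO, a log2 difference of -1.35 (SE 0.34; adjusted p = 0.0496 by limma). Every DKO library was below every WT library, with DKO 7 the lowest. The p lay close to the threshold, and the call of Col6a6 was lost without WT 4, WT 5, WT 6 or DKO 8 (up to 0.126), and also with pseudocount 0.1, no filter, a 5 TPM filter, eBayes without trend or array weights. Its neighbour Col6a5, another chain of that kind, was 0.0733 to 0.263 TPM in WT, 0.113 TPM in DKO 7, 1.02 TPM in DKO 8 and 13.7 TPM in DKO 9, so that 1 library held nearly all of its signal; it did not reach the filter. Col6a4, next in the same row of genes, was listed at 0 in all 6 libraries.

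In the fibril-associated class, 4 of 9 chains were tested and 1 rose, a count close to the share over all genes tested (6.51% higher). Col14a1 (chromosome 15, 55307644 to 55520803), a surface chain of type I fibres, had the smallest p of the collagens. It had 12.1, 10.5 and 11.9 TPM in WT and 41.8, 61.1 and 35.5 TPM in DKO, a narrow WT range with no DKO library near it. The log2 difference of Col14a1 was 1.88 (SE 0.19; adjusted p = 0.00448 by limma), a ratio of 4.02, and it stayed called without any 1 library (adjusted p 0.00891 to 0.0199 by limma). Col12a1, its close relative in structure, had 1.10, 0.589 and 1.01 TPM in WT and 1.85, 2.61 and 2.42 TPM in DKO. The groups of Col12a1 did not overlap, but it was not called (log2 difference 0.80, 95% interval 0.29 to 1.30; adjusted p = 0.0594 by limma). Col12a1 was called with eBayes without trend (adjusted p = 0.0358 by limma) and with array weights (0.0490). Col16a1 (5.52 ± 1.51 and 8.94 ± 1.99 TPM) and Col20a1 (2.21 ± 0.930 and 2.41 ± 0.991 TPM) were not called. Col9a1, Col9a2, Col9a3, Col19a1 and Col22a1 did not reach the filter, and the highest value among them was 1.13 TPM of Col9a3 in DKO 7.

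Outside these classes, both tested chains of type VIII collagen rose. Col8a1 and Col8a2 are short chains that form hexagonal lattices under vascular endothelium and in injured vessel walls. Col8a1 (chromosome 16, 57624256 to 57754737) rose from 13.9, 9.59 and 18.0 TPM in WT to 39.8, 46.7 and 41.1 TPM in DKO, a log2 difference of 1.59 (SE 0.21; adjusted p = 0.00774 by limma) and a ratio of 3.08. Col8a2 (chromosome 4, 126286794 to 126314330) had 0.575, 0.493 and 0.402 TPM in WT and 3.55, 4.64 and 3.15 TPM in DKO, a log2 difference of 1.67 (SE 0.20; adjusted p = 0.00625 by limma) and a ratio of 7.71. Both stayed called without any 1 library (adjusted p up to 0.0339 by limma), as did Col3a1 (up to 0.0413) and Col14a1, and no other collagen chain did. These fits kept the same genes, and Col8a2 passed the filter only through DKO, so for Col8a2 staying called adds no support. The log2(TPM + 1) scale understates Col8a2, whose log2 difference was 2.71 with 0.1 TPM added in place of 1.

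The windows before both type VIII start sites, marked as above, held GGGCGG and no exact match to CCAAT or TATAAA. Counting overlapping matches, there were 4 for Col8a1 (chr16:57754738-57754987, minus strand) and 4 for Col8a2 (chr4:126286544-126286793, plus strand), 2 of which overlap.
Col8a1: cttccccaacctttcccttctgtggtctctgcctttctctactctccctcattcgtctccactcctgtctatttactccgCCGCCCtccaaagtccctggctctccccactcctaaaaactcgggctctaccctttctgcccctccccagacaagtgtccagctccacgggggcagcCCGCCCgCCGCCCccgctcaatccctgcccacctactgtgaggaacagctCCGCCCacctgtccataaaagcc
Col8a2: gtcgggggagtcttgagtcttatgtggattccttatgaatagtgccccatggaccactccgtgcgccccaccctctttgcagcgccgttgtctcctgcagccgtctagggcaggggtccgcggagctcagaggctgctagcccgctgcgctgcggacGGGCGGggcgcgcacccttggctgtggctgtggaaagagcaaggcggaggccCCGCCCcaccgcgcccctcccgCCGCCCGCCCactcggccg

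The transmembrane chain Col13a1 (chromosome 10, 61838234 to 61979206), found at cell junctions and at the neuromuscular synapse, rose from 1.33, 0.490 and 1.25 TPM in WT to 5.32, 3.23 and 6.98 TPM in DKO. Its log2 difference was 1.59 (SE 0.30; adjusted p = 0.0227 by limma), and the call was lost without WT 5, WT 6, DKO 7 or DKO 9 (adjusted p up to 0.0746 by limma). Col23a1, also transmembrane, was 1.36 ± 0.373 and 1.14 ± 0.303 TPM. The basement membrane zone chains Col15a1 (64.3 ± 8.74 and 82.1 ± 20.1 TPM), which is abundant around capillaries and myocytes, and Col18a1 (7.58 ± 3.09 and 7.39 ± 0.742 TPM), the source of endostatin, overlapped between groups and were not called (adjusted p 0.292 and 0.965 by limma). Col7a1, Col17a1, Col25a1, Col26a1 and Col28a1 stayed under 1 TPM in every library, and Col10a1, a growth plate chain, was listed at 0 in all.

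**Figure D2:**
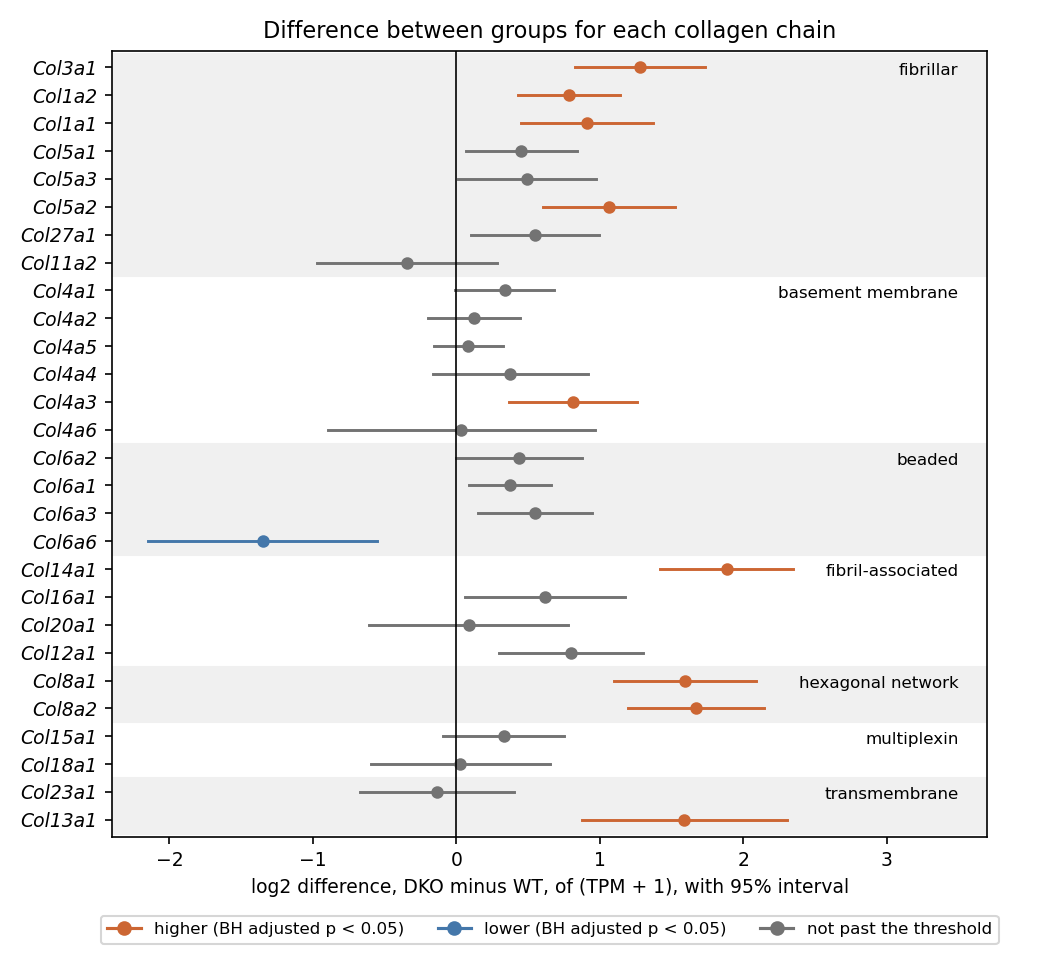
Log2 difference, DKO minus WT, of (TPM + 1) for each of the 28 tested chains with its 95% interval from limma, grouped by class; colour shows the call over all genes. The intervals of Col14a1, Col8a1, Col8a2, Col13a1 and Col3a1 have the highest lower ends, Col6a6 lies below 0, and the type IV chains other than Col4a3 have intervals that include 0.

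Summed by class, the fibrillar, fibril-associated, hexagonal network, transmembrane and anchoring chains were above all WT libraries in each DKO library. The transmembrane sums were low, 1.90 to 3.51 TPM in WT and 4.76 to 8.67 TPM in DKO, and the anchoring sums stayed under 1 TPM. The fibrillar sum was 336, 254 and 357 TPM in WT and 509, 733 and 646 TPM in DKO, a ratio of means of 1.99 with no overlap. The fibril-associated sum, which is mostly Col14a1, was 23.3, 18.5 and 22.8 TPM in WT and 55.1, 81.0 and 50.3 TPM in DKO, a ratio of 2.89. The basement membrane sum was 369, 337 and 455 TPM in WT and 414, 525 and 430 TPM in DKO (ratio 1.18), and the beaded sum 144, 127 and 155 in WT and 151, 215 and 200 TPM in DKO (ratio 1.33), both with overlap. The beaded sum of DKO 9 includes 13.7 TPM of Col6a5, which was at most 0.263 TPM in WT. All 44 chains together took 965, 811 and 1093 TPM in WT and 1257, 1724 and 1460 TPM in DKO. Within that total, fibrillar chains made up 32.9% ± 1.76 in WT and 42.4% ± 1.88 in DKO, and basement membrane chains 40.5% ± 1.95 in WT and 31.0% ± 1.79 in DKO. The largest class by summed TPM was thus basement membrane in each WT library and fibrillar in each DKO library. No test was made on these sums, since they are scores over chosen chains.

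**Figure D3:**
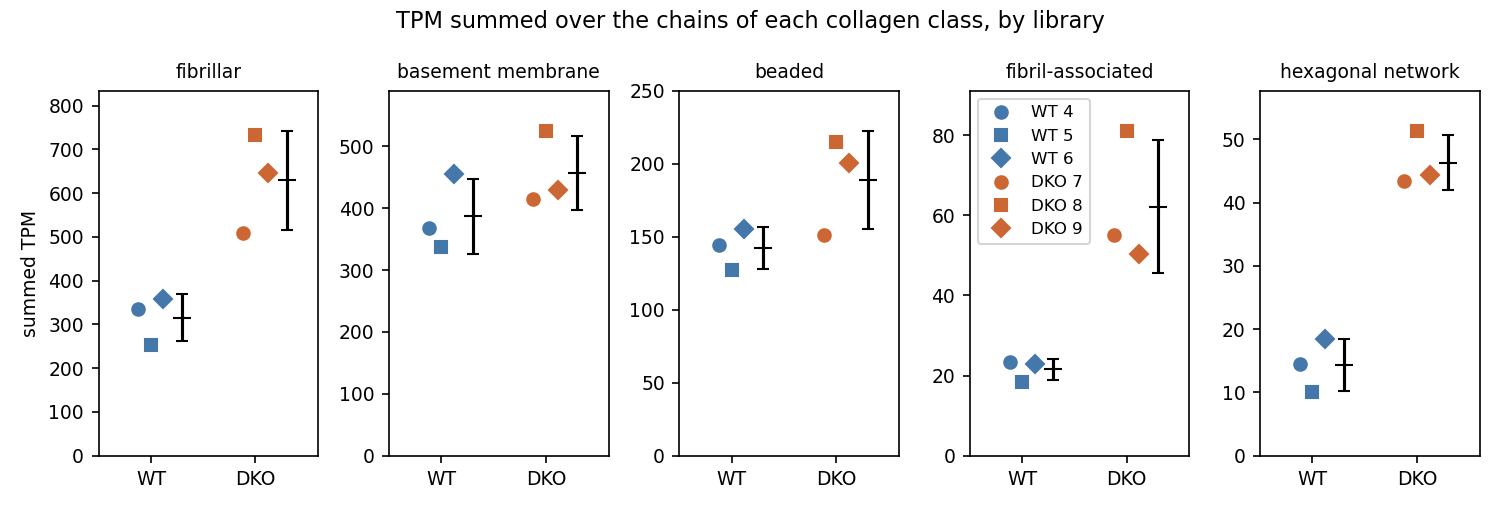
TPM summed over the chains of 5 collagen classes, 1 point per library, with the group mean and SD (n = 3) as a bar beside the points; each panel has its own axis from 0. The fibrillar, fibril-associated and hexagonal network sums of DKO lie above all WT values, and the basement membrane and beaded sums overlap.

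Ratios between chains within a library do not depend on that library's total, and 14 were computed, taken between partners in a trimer, other chains of the same class, or chains of different classes. Of these, 7 had groups that did not overlap; each of those had an exact two-sided permutation p of 0.1, the smallest that 3 against 3 libraries allow (0.2 after BH adjustment over the 14), so none could pass 0.05. Several ratios share a chain and are not independent. The Col3a1 to Col1a1 ratio was 1.77, 1.68 and 1.74 in WT and 2.31, 2.18 and 2.23 in DKO, higher in all 3 DKO libraries. The Col1a1 to Col1a2 ratio overlapped (0.868 ± 0.0504 in WT and 0.946 ± 0.0518 in DKO; exact permutation p = 0.2).

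Col4a1 and Col4a2 are transcribed in opposite directions and overlap at their annotated 5′ ends. Their ratio was 1.19, 1.17 and 1.24 in WT and 1.39, 1.38 and 1.41 in DKO (exact permutation p = 0.1), a small difference of 0.21 in log2 that was larger than the spread within either group. The annotated exons of both genes overlap on opposite strands, and the sources used here do not give whether strand was used in the quantification. The Col4a4 to Col4a3 ratio, from another head-to-head pair, was 2.37 ± 0.268 in WT and 1.57 ± 0.146 in DKO without overlap. The Col5a1 to Col5a2 ratio was 1.39, 2.29 and 1.59 in WT and 0.985, 1.29 and 1.04 in DKO, and the Col8a1 to Col8a2 ratio 24.2, 19.5 and 44.8 in WT and 11.2, 10.1 and 13.1 in DKO. In these last 3 pairs the chain with the lower WT level made up more of the pair in DKO. Among the remaining ratios without overlap, Col3a1 to Col4a1 went the same way. Col3a1 to Col1a1, Col4a1 to Col4a2 and Col4a5 to Col4a1 went the other way. Col8a2 was only 0.402 to 0.575 TPM in WT and passed the filter only through DKO. The type VI pair overlapped, with a Col6a1 to Col6a2 ratio of 1.01, 1.03 and 0.967 in WT and 1.08, 0.856 and 0.950 in DKO (exact permutation p = 0.6). Between classes, the Col3a1 to Col4a1 ratio was 0.681, 0.533 and 0.579 in WT and 1.03, 1.17 and 1.27 in DKO, while the Col6a1 to Col4a1 ratio overlapped (0.302 ± 0.0208 and 0.310 ± 0.0157).

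**Figure D4:**
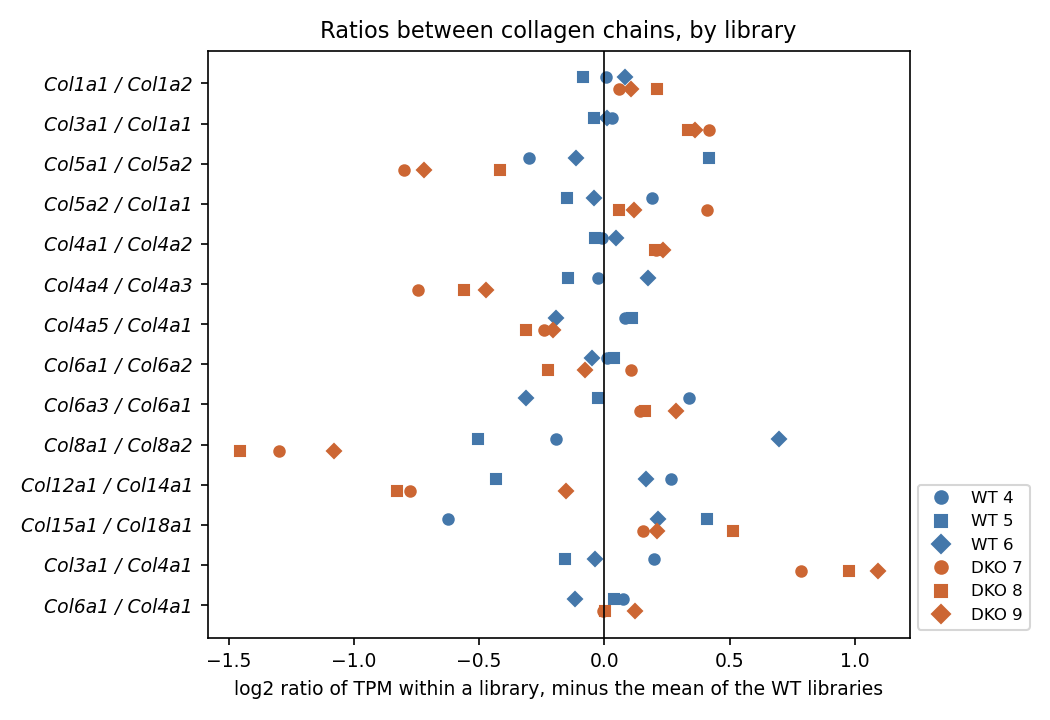
Log2 ratio of the TPM of 2 chains within each library, minus the mean of the 3 WT libraries for that ratio, for all 14 ratios; 1 point per library. Col3a1 / Col1a1, Col4a1 / Col4a2 and Col3a1 / Col4a1 lie to the right in all DKO libraries, Col8a1 / Col8a2 and Col4a4 / Col4a3 to the left, and Col6a1 / Col6a2 is mixed.

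The chains also share letters in their 3′ untranslated regions. The miR-29 family is known as a repressor of collagen mRNAs in heart, and its members share the seed, bases 2 to 8, shown in capitals (RefSeq, GRCm38.p6, 5′ to 3′). Mature miR-29 was not measured in these libraries.
mmu-miR-29a-3p: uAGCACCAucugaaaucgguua
mmu-miR-29b-3p: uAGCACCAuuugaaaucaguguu
mmu-miR-29c-3p: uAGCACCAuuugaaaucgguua

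The complement of that seed, TGGTGCT on the transcript strand, was looked for in the 3′ untranslated region of the longest coding transcript of each gene (GENCODE M21). It was present in 23 of the 41 collagen chains with such a region (56.1%), against 11.8% of 20569 genes. Among genes past the expression filter it was in 16 of 25 chains, against 14.0% of 12778 genes. The regions were not matched for length, and a longer region has more places for a match. All 6 type IV chains held it, 9 of 10 fibrillar chains did, and 1 of 5 beaded and none of 4 transmembrane chains did. Of the tested chains other than Col6a3, Col11a2 and Col18a1, which had no such region, 5 of the 16 with it and 5 of the 9 without it were called. Their median log2 differences were 0.47 and 0.79. Over all genes tested, 10.7% were called in either direction. Sites of 4 called chains, with the match in capitals and neighbouring bases in lower case, are shown as examples.
Col1a1: ggaatttcTGGTGCTatagaagc
Col3a1: tgtctcaaTGGTGCTataataaa
Col5a2: tttaatgaTGGTGCTaaaattat
Col8a1: ttctaccaTGGTGCTaatatcag

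Genes that act on collagen were taken from lists of known function. For these and all lists below, the share over all genes tested was 6.51% called higher and 4.22% called lower. Of 20 tested genes for chain modification and folding, 4 rose and 1 fell, with a median log2 difference of 0.17. The rises were Crtap (26.7 ± 1.54 to 41.6 ± 1.07 TPM), part of the prolyl 3-hydroxylase complex, P3h2 (3.80 ± 1.18 to 11.9 ± 1.17 TPM), a prolyl 3-hydroxylase, P4hb (158 ± 10.8 to 232 ± 11.3 TPM), the shared subunit of prolyl 4-hydroxylase, and the collagen-binding protein Sparc (213 ± 42.5 to 355 ± 22.4 TPM). The fall was Ctage5, listed as Mia2 and known for collagen export from the endoplasmic reticulum (75.6 ± 7.30 to 54.6 ± 4.13 TPM). The collagen chaperone Serpinh1, at 143 TPM in WT and 165 TPM in DKO, was not called (adjusted p = 0.327 by limma). The catalytic subunits P4ha1 (33.6 and 24.6 TPM) and P4ha2 (43.2 and 30.7 TPM) had lower means in DKO and were not called (adjusted p 0.211 and 0.112 by limma).

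Of 5 tested genes of propeptide cleavage, the step that lets fibrillar collagen assemble, 3 rose and none fell. The enhancers Pcolce2 (21.3, 24.1 and 21.6 TPM in WT and 38.8, 45.4 and 47.4 TPM in DKO) and Pcolce (52.9 ± 11.6 to 104 ± 16.0 TPM) rose, with ratios of 1.96 and 1.97, and the N-proteinase Adamts2 rose from 14.0 ± 1.70 to 23.1 ± 4.35 TPM. Adamts3 was 4.52 ± 1.10 and 8.17 ± 1.77 TPM and was not called (adjusted p = 0.0753 by limma).

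Among 9 tested collagen receptors 3 rose and none fell. They were Itga11 (3.27 ± 0.714 to 6.72 ± 0.817 TPM), the fibroblast integrin for fibrillar collagen, Ddr1 (16.4 ± 1.42 to 34.9 ± 11.1 TPM), a collagen-binding tyrosine kinase, and Lair1 (2.27 ± 0.848 to 6.97 ± 2.73 TPM), an inhibitory receptor of leukocytes. The endocytic receptor Mrc2 was 14.2 ± 1.25 and 21.4 ± 3.74 TPM (adjusted p = 0.0555 by limma). Of 9 tested genes of collagen breakdown 5 rose and 1 fell. The inhibitors Timp1 (2.70 ± 1.89 to 29.3 ± 7.05 TPM) and Timp2 (72.8 ± 3.60 to 110 ± 18.0 TPM) rose, as did the proteases Mmp14 (14.6 ± 1.46 to 21.6 ± 1.76 TPM), Mmp2 (42.8 ± 4.44 to 57.9 ± 3.12 TPM) and Ctsk (5.11 ± 2.73 to 16.3 ± 3.33 TPM), while Mmp9 fell from 1.59 ± 0.802 to 0.165 ± 0.0980 TPM. Mmp9 passed the filter only through the WT libraries and so had to differ, and its fall is no result about this list.

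Markers of the cells that make collagen differed by list. Over all genes tested, 6.51% were called higher and 4.22% lower. In lists of 6 genes or fewer, 1 call or none is close to those shares. In bulk tissue, more cells of a type and more RNA per cell cannot be told apart. The 6 resident fibroblast markers summed to 1583 to 1749 TPM in WT and 1473 to 1800 TPM in DKO, overlapping ranges, and 1 of 6 was called, Lum, a proteoglycan that binds fibrils (66.6 ± 7.76 to 98.8 ± 16.5 TPM). Tcf21 (13.9 in WT and 20.1 TPM in DKO), Gsn (925 and 787 TPM) and Dcn (542 and 592 TPM) were not called. The 6 activated fibroblast markers summed to 151 to 183 TPM in WT and 374 to 521 TPM in DKO. Of these, Postn (39.3, 27.2 and 44.4 TPM in WT and 154, 163 and 147 TPM in DKO), Meox1 (11.9 ± 2.35 to 35.4 ± 2.35 TPM) and Acta2 (66.5 ± 11.1 to 228 ± 63.3 TPM) rose, and Tagln fell (43.6 ± 6.61 to 24.1 ± 2.66 TPM).

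Endothelial markers, from cells that make type IV collagen, summed to 671 to 772 TPM in WT and 588 to 670 TPM in DKO, with 0 of 6 higher and 2 lower, Tie1 (68.0 to 51.6 TPM) and Cdh5 (156 to 129 TPM). Emcn (58.2 and 45.5 TPM) and Egfl7 (208 and 166 TPM) were not called. Mural markers summed to 607 to 653 and 503 to 566 TPM, with 1 of 6 called, Kcnj8, as lower (35.2 to 23.2 TPM). Myh11 (31.4 and 18.6 TPM), Rgs5 (457 and 397 TPM) and Pdgfrb (56.9 and 48.1 TPM) were not. Macrophage markers summed to 110 to 153 and 218 to 275 TPM, with 3 of 6 called, C1qa (51.0 to 113 TPM), Mrc1 (27.0 to 38.9 TPM) and Adgre1 (9.575 to 20.1 TPM), as higher, and Fcgr1 (1.89 and 5.20 TPM) not called. Of the 6 chondrocyte markers 2 were tested and 1, Cnmd, was lower (3.42 to 0.342 TPM), while Sox9 was not called (4.68 and 6.32 TPM), with Matn3 at 0 in all libraries and sums of 7.81 to 9.57 and 7.28 to 8.93 TPM. Cnmd passed the filter only through the WT libraries and so had to differ. Mesothelial markers (14.3 to 42.4 and 13.1 to 17.0 TPM) had no called gene among 4 tested (Wt1, Upk3b, Msln and Upk1b). The part of the activated fibroblast and macrophage markers in the collagen differences was not tested.

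The sex-linked split runs with the groups in part. With a term for it, 92 genes of all tested were called by limma, and with DKO 9 alone against WT, the DKO library that has Y-linked transcripts like WT, 12 were, with no collagen chain among either. The log2 differences in DKO 9 against the 3 WT libraries were 1.35 for Col3a1, 1.55 for Col14a1, 1.55 for Col8a1 and 1.48 for Col8a2. These chains were picked because they stayed called in these same libraries, and Col8a2 passed the filter only through DKO. Their values therefore add no support. In the same fit, 24 of 28 chains had a positive difference, and the median was 0.44 for the chains and 0.06 over all genes tested. Chains of 1 library are not replicates. In that fit the single DKO library is assumed to vary like the WT libraries. The term for the split gave the same log2 differences, since it too leaves only DKO 9 to set against WT. With DKO 7 counted as WT, 1 of all genes was called and no chain. There 26 of the 28 differences were positive, and the median was 0.56 for the chains and 0.08 over all genes tested. The share of all genes with a positive difference was not counted in these alternative fits. With groups by title it was 7960 of 14541.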

How the data were processed

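The authors deposited 1 table of TPM values per gene and library, per the file headers; the submitters' processing notes name bcl2fastq, kallisto 0.44.0 and mm10, and how transcripts were combined into genes is not given in the sources used here. Reads were paired, 2 of 75 bases, from strand-specific libraries of total RNA. Groups follow the titles. Members, classes, lists, ratios and alternatives were chosen with earlier results of these data known. R 4.3.3 with limma 3.58.1 fitted the whole table as log2(TPM + 1), using eBayes and a mean-variance trend, after genes under 1 TPM in all but 2 or fewer libraries were dropped. P-values were BH adjusted across the fitted genes (threshold 0.05), and the fit was tested on simulated data. Fits that left out libraries kept the same genes. Alternatives changed the pseudocount, filter, scaling, trend, weights, the group of replicate 7, the sex-linked split and the libraries included. Ratios used an exact permutation test. Classes follow textbook grouping. Positions came from RefSeq (GRCm38.p6), where all 44 symbols matched. List genes Cnmd and Ctage5 were matched through synonyms. Named by rule were the called chains, the 2 most abundant chains of each class and the 4 smallest p of each list; all other chains, and Serpinh1, P4ha1, P4ha2, Ctage5, Ctsk and Mmp9, were named after their values were seen. Figures used matplotlib 3.10.9. A further marker list is not reported here.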

Additional observations from a re-analysis of the deposited data

How the results depend on the processing

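Alternatives moved the counts of called chains as follows. The single fall, Col6a6, became 0 with pseudocount 0.1, without a filter, with a 5 TPM filter, with eBayes without trend and with array weights. With replicate 7 as WT, a term for sex-linked transcripts, or only the libraries with Y-linked transcripts, 0 chains were called higher and 0 lower, and 1, 92 and 12 of all genes were called. Leaving out 1 library gave 4 to 7 chains higher, 0 to 1 lower and 622 to 877 of all genes called; chains higher were 5 without WT 5, 5 without DKO 8 and 4 without DKO 9. Chains higher were 7 without a filter and 6 with the 5 TPM filter. Median-ratio and quantile scaling each kept 10 of the same 10 calls. Of 440 single-chain values under alternatives, 421 kept their direction. Of the 158 values of called chains, 65 were no longer past the threshold and 0 reversed. No called chain had overlapping groups, and the chains were chosen from these same libraries, so leaving out libraries could not reverse them. Both sex-linked alternatives gave the same log2 differences and are counted separately in these totals. The 19 reversals were in 5 uncalled chains: Col18a1 (median-ratio -0.0015, quantile -0.10, array weights -0.032, both sex-linked alternatives -0.046, libraries left out -0.23 to 0.29), Col4a6 (quantile -0.12; left out -0.27 to 0.34), Col20a1 (quantile -0.073, both sex-linked alternatives -0.14; left out -0.14 to 0.31), Col11a2 (0.066 in both sex-linked alternatives) and Col23a1 (0.083 with replicate 7 as WT). Leaving out 1 library also turned the log2 differences of the ratios Col6a1 to Col6a2 (-0.15 to 0.016), Col15a1 to Col18a1 (-0.018 to 0.50) and Col6a1 to Col4a1 (-0.017 to 0.079). The causes were not tested. No paired analysis was possible because the groups share no replicate numbers. Depth is unknown, so low chains such as Col8a2 carry an unmeasured counting error.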
